A study of Marchantia polymorpha with 12 samples.

Results

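MpDHN1 (Mp6g07540) and MpLEA-like18 (Mp4g05730) are 2 genes of the late embryogenesis abundant (LEA) family of the liverwort Marchantia polymorpha. They were chosen by their UV-B rise in these normalized values, and they are 2 of the 18255 genes in the deposited table and 2 of the 15999 that passed the filter on low values. MpDHN1 lies on chromosome 6 and MpLEA-like18 on chromosome 4. A table of gene names lists 70 further genes of the family by symbol, of which 64 passed the filter and 6 did not.

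RNA was sequenced from gemmalings, which are plantlets sprouted from asexual buds called gemmae, at an age of 7 days. The 4 groups, each of 3 libraries, were the Mphy5 mutant with 3 h of UV-B, the Mphy5 mutant without UV-B, wild type Tak-1 with 3 h of UV-B and wild type Tak-1 without UV-B. All plants had been kept under white light of 50 µmol per square metre per second, and UV-B was added at 1.5 µmol. The labels call both lines male, and they give neither the kind of mutation, nor the number of independent mutant lines, nor the hour of harvest. HY5 is a bZIP transcription factor of light signalling, which in flowering plants acts downstream of the UV-B photoreceptor UVR8. The question asked of MpDHN1 and MpLEA-like18 is whether their UV-B response or their level differed between the mutant and wild type.

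LEA proteins are mostly hydrophilic and poorly structured in solution, and plants accumulate them in maturing seeds and in vegetative tissue that loses water. Dehydrins are a LEA group with conserved lysine-rich segments, and in flowering plants their genes are known to respond to drought, cold, salt and the hormone abscisic acid (ABA). Liverworts have no seeds, and there LEA proteins are known from tissue that tolerates drying. MpLEA-like18 carries a family symbol only, and no role of its own is assigned to it here.

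The 12 libraries held 44787979 to 67532310 recovered reads, a range set by the 3 Mphy5 libraries with UV-B. A read was worth 0.780 to 1.19 normalized reads, the unit used throughout, and 3 reads in a library were worth 2.34 to 3.58. MpBZIP1, read here as MpHY5 after published naming, averaged 16122 ± 647 normalized reads in Mphy5 with UV-B, 1545 ± 40.9 in Mphy5 without UV-B, 6033 ± 306 in wild type with UV-B and 1339 ± 70.5 in wild type without UV-B (SD, n = 3 each). Its transcript was thus present in the mutant, where the lesion is not stated, so the mutant's label has no check in it. V chromosome genes, which male plants carry, held 139777 to 162984 normalized reads per library, while U chromosome genes of females held 79 to 171 reads. Gene lengths are not used here, so levels are compared between groups and not between genes.

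MpDHN1 was low without UV-B and high with it in both lines. It stood at 254.2, 317.4 and 248.4 normalized reads in Mphy5 with UV-B, against 8.68, 16.4 and 38.3 in Mphy5 without UV-B. In wild type it stood at 202.3, 279.2 and 241.4 with UV-B, against 29.4, 33.0 and 31.8 without UV-B. Every library with UV-B was above every library without it, whichever the line, while the lines overlapped both with and without UV-B.

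The UV-B response of MpDHN1 is what the gene was chosen for and is given as a description. The gene averaged 273.3 ± 38.2 normalized reads in Mphy5 with UV-B and 21.1 ± 15.4 without UV-B (SD, n = 3 each), a ratio of means of 12.9. In wild type it averaged 241.0 ± 38.5 with UV-B and 31.4 ± 1.88 without UV-B, a ratio of means of 7.67. On the log2(value + 1) scale the fitted change was 3.86 in Mphy5 (95% interval 3.13 to 4.59) and 2.89 in wild type (2.16 to 3.62). By size of fitted rise MpDHN1 stood 16th of 15999 genes in Mphy5 and 39th in wild type. A bulk measurement of this kind cannot tell more cells that express a gene from more RNA per cell.

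MpLEA-like18 also rose in both lines, and its 4 groups did not overlap, a pattern whose share among all tested genes was not counted. It stood at 158.8, 187.0 and 218.6 normalized reads in Mphy5 with UV-B, against 35.8, 33.6 and 31.8 in Mphy5 without UV-B. In wild type it stood at 103.5, 132.0 and 93.0 with UV-B, against 55.02, 45.04 and 52.35 without UV-B. The order from high to low was Mphy5 with UV-B, wild type with UV-B, wild type without UV-B and Mphy5 without UV-B, with no library of one group inside the range of another.

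The UV-B response of MpLEA-like18 is likewise a description. It averaged 188.1 ± 29.9 normalized reads in Mphy5 with UV-B and 33.7 ± 2.02 without UV-B (SD, n = 3 each), a ratio of means of 5.58. In wild type it averaged 109.5 ± 20.2 with UV-B and 50.8 ± 5.17 without UV-B, a ratio of means of 2.16. The fitted log2 change was 2.44 in Mphy5 (95% interval 1.98 to 2.90) and 1.08 in wild type (0.62 to 1.54). By size of fitted rise it stood 106th of 15999 genes in Mphy5 and 701st in wild type. For comparison, 3.32% of tested genes were called by limma (Benjamini-Hochberg adjusted p under 0.05) with a rise of at least 1 on the log2 scale in Mphy5 and 3% in wild type. Both chosen genes are among them, as their choice implies. Rises with no overlap between the UV-B groups were seen in 21% of tested genes in Mphy5 and 20.2% in wild type, and called rises in both lines in 11.1%.

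**Figure D1:**
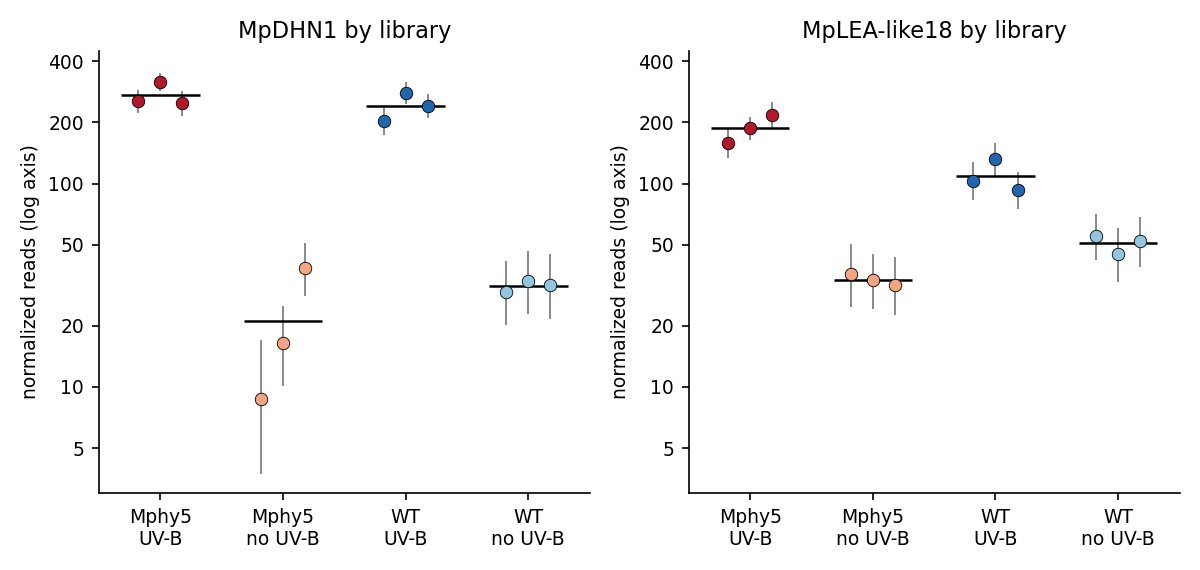
Normalized reads (log axis) of MpDHN1 (left) and MpLEA-like18 (right) in each of the 12 libraries, by group; points are libraries, grey lines are exact 95% Poisson intervals of the reads behind them and black bars are group means. MpDHN1 spans 8.68 to 38.3 among the 3 Mphy5 libraries without UV-B, and the 4 groups of MpLEA-like18 do not overlap.

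The lines were then compared. The choice by UV-B rise names no line, but a choice that leaned on the rise in one line would favour a difference between the lines, and the p-values below take no account of the choice. Without UV-B, MpLEA-like18 was lower in every Mphy5 library than in every wild type library, a pattern that 20.6% of tested genes shared in that direction. The fitted log2 difference was -0.57 (SE 0.22, 95% interval -1.04 to -0.11), and limma did not call it (adjusted p = 0.0639). It was called when limma was fitted without its trend and robust options (adjusted p = 0.0257), and over all alternatives the adjusted p lay between 0.0257 and 0.164. MpDHN1 had a log2 difference of -0.79 without UV-B (SE 0.35, 95% interval -1.52 to -0.05, limma adjusted p = 0.114), with overlapping groups. In that comparison 24.9% of tested genes were called, 11% higher and 13.9% lower in Mphy5, and neither of the 2 genes was among them.

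With UV-B, MpLEA-like18 was called higher in Mphy5 and MpDHN1 was not, and whether the 2 genes differ in this was not tested. MpLEA-like18 was higher in every Mphy5 library than in every wild type library, as were 18.8% of tested genes. Its log2 difference was 0.78 (SE 0.22, 95% interval 0.32 to 1.24, limma adjusted p = 0.0107), or 1.72-fold. In that comparison 29.8% of tested genes were called, 13.8% higher and 16% lower in Mphy5. The call was lost without Mphy5 UV-B replicate 3, the highest library (0.66, adjusted p = 0.0638), and the lowest adjusted p of any alternative was 0.00208. MpDHN1 had a log2 difference of 0.18 with UV-B (95% interval -0.55 to 0.92, limma adjusted p = 0.741). Differences of either sign within that interval remain compatible with these values.

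The UV-B response of MpLEA-like18 was larger in Mphy5 than in wild type. The difference of the 2 log2 responses was 1.35 (SE 0.31, 95% interval 0.70 to 2.005), which is a 2.56-fold larger response in the mutant. limma called it (adjusted p = 0.0137), and 4.46% of tested genes were called, 1.93% in that direction and 2.54% in the other. The adjusted p stayed between 0.0111 and 0.0492 when each library was left out in turn and between 0.00173 and 0.0203 under the other alternatives. In normalized reads the group means differed by 154.4 with against without UV-B in Mphy5 and by 58.7 in wild type. The mutant's lower level without UV-B and its higher level with UV-B both enter this difference. It is built from the same responses by which the gene was chosen and is not independent of that choice.

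For MpDHN1 the difference of responses was 0.97 (SE 0.49, 95% interval -0.07 to 2.01) and was not called (limma adjusted p = 0.355). In normalized reads its group means differed by 252.2 in Mphy5 and by 209.6 in wild type. Its values in the 3 Mphy5 libraries without UV-B came from 8, 21 and 47 reads. The exact 95% Poisson intervals were 3.75 to 17.1 normalized reads for replicate 1, 10.1 to 25.1 for replicate 2 and 28.1 to 50.9 for replicate 3. Replicates 1 and 3 thus differed by more than counting error, which is all that such an interval covers.

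The coefficient of variation of MpDHN1 was 72.7% in Mphy5 without UV-B, against 13.99% in Mphy5 with UV-B, 16.0% in wild type with UV-B and 5.97% in wild type without UV-B. Its SD on the log2 scale in that group, 1.01, was reached by 6.36% of tested genes. Without Mphy5 replicate 3 of that group, limma called MpDHN1 both lower in Mphy5 without UV-B (-1.32, adjusted p = 0.00148) and larger in its response (difference 1.50, adjusted p = 0.0224). Over all alternatives the adjusted p lay between 0.00148 and 0.504 for the first and between 0.0224 and 0.606 for the second. That replicate was the highest of its group for 32.4% of 15777 genes and for 21 of 58 LEA family genes. MpLEA-like18 showed no such spread, since its coefficient of variation was 6.005% in the same group, 15.9% in Mphy5 with UV-B, 18.4% in wild type with UV-B and 10.2% in wild type without UV-B.

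**Figure D2:**
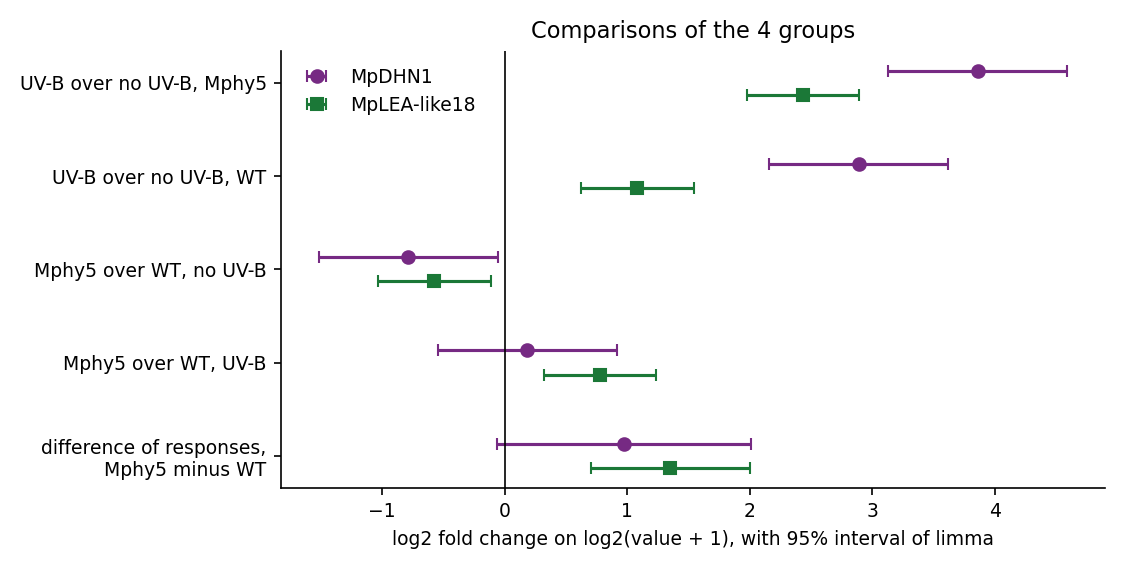
Fitted log2 fold changes of MpDHN1 and MpLEA-like18 on the log2(value + 1) scale, with 95% intervals from limma, in 5 comparisons of the 4 groups. The intervals of MpLEA-like18 lie above 0 for Mphy5 over wild type with UV-B (0.32 to 1.24) and for the difference of responses (0.70 to 2.005), while those of MpDHN1 reach below 0 in both. For Mphy5 over wild type without UV-B the intervals of both genes lie below 0 (MpDHN1 -1.52 to -0.05, MpLEA-like18 -1.04 to -0.11), though limma called neither. The intervals are not adjusted for the number of genes tested.

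The rest of the LEA family was mixed. Among the 64 other tested genes, 17 rose and 8 fell with UV-B in Mphy5, and 12 rose and 5 fell in wild type, by limma. Over all tested genes 31.8% were called in Mphy5, 15.9% up and 15.9% down, and 29.2% in wild type, 14.6% up and 14.6% down. The median log2 change of the 64 genes was 0.36 in Mphy5 and 0.19 in wild type, or 0.31 and 0.16 with genes at 0 in a whole group set to their bounds, beside -0.01 over all tested genes in each line. In all, 11 genes rose in both lines, 3 fell in both, 36 were called in neither and 0 were called in opposite directions. A further 6 rose in Mphy5 without a call in wild type, and 1 rose in wild type without a call in Mphy5, while 5 fell in Mphy5 without a call in wild type and 2 fell in wild type without a call in Mphy5. The count in wild type fell to 10, of which 8 rose, without wild type UV-B replicate 2.

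Several LEA-like genes had large rises in at least 1 line. MpLEA-like14 stood at 44.0, 47.8 and 62.1 normalized reads in Mphy5 with UV-B, against 4.34, 5.46 and 0.81 without UV-B. In wild type it stood at 41.9, 24.5 and 57.5 with UV-B, against 5.50, 6.01 and 6.16 without UV-B. It rose by 3.70 on the log2 scale in Mphy5 (limma adjusted p = 3.28e-06) and by 2.54 in wild type (adjusted p = 0.000366), and its groups did not overlap in either line. Of the LEA family, only MpDHN1 had a larger mean of the 2 fitted responses, 3.38 beside 3.12 for MpLEA-like14.

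MpLEA-like22 rose by 2.72 in Mphy5 (limma adjusted p = 0.000317) and by 1.98 in wild type (adjusted p = 0.00632). MpLEA-like27 rose by 1.44 in Mphy5 (adjusted p = 0.00501) and by 1.01 in wild type (adjusted p = 0.0484), the last a call that 13 alternatives lost. MpLEA-like25 rose by 1.79 in Mphy5 (adjusted p = 1.63e-05), while its change in wild type was 0.55 (adjusted p = 0.132) and the difference of the 2 was not called (1.23, adjusted p = 0.0705). MpLEA-like25 was also called lower in Mphy5 without UV-B, at 26.7 ± 9.72 normalized reads in Mphy5 and 100.8 ± 10.9 in wild type (SD, n = 3 each; log2 difference -1.94, limma adjusted p = 1.59e-05). MpLEA-like53 was at 0 in all 6 libraries without UV-B and reached at most 7.01 normalized reads with UV-B. Against the floor of 3 reads per library its mean with UV-B was at least 1.31-fold higher in Mphy5 and 1.56-fold higher in wild type. Its lowest libraries with UV-B held 1.62 normalized reads in Mphy5 and 2.09 in wild type. The rise was called by limma in both lines, but 7 alternatives lost the call in Mphy5 and 1 in wild type. MpLEA-like35 was at 0 in Mphy5 without UV-B, and its mean there with UV-B was at least 1.996-fold higher, a rise whose call 2 alternatives lost.

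In MpLEA-like29, MpLEA-like4, MpLEA-like50 and MpLEA-like57, which rose in both lines, the fitted response was smaller in Mphy5, though limma did not call these differences. MpLEA-like29 averaged 3374 ± 307 normalized reads in Mphy5 with UV-B and 2122 ± 249 without UV-B, against 5563 ± 763 and 2413 ± 306 in wild type (SD, n = 3 each). It rose by 0.67 on the log2 scale in Mphy5 (limma adjusted p = 0.00192) and by 1.203 in wild type (adjusted p = 3.31e-05), and it was lower in Mphy5 with UV-B (-0.72, adjusted p = 0.00173), the opposite side to MpLEA-like18. MpLEA-like4 rose by 0.68 in Mphy5 and 1.15 in wild type, MpLEA-like50 by 0.45 and 0.55, and MpLEA-like57 by 0.21 and 0.33, in the same order of lines. MpLEA-like13 fell by 0.26 and 0.20, and MpLEA-like58 by 0.46 and 0.31. MpLEA-like7 fell by 1.24 in wild type (adjusted p = 0.0451), a call that 8 alternatives lost, and had a change of -0.67 in Mphy5 (adjusted p = 0.271).

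Of the other dehydrin genes, MpDHN3 rose in both lines and MpDHN2 was called in neither. MpDHN3 averaged 628.4 ± 56.7 normalized reads in Mphy5 with UV-B and 331.4 ± 35.2 without UV-B, against 602.4 ± 78.4 and 393.8 ± 49.2 in wild type (SD, n = 3 each). It rose by 0.92 in Mphy5 (limma adjusted p = 3.61e-06) and by 0.61 in wild type (adjusted p = 0.000551). MpDHN2, named after its values were seen, had changes of -0.29 in Mphy5 (adjusted p = 0.237) and 0.10 in wild type (adjusted p = 0.74). Whether the dehydrins differ from one another in response was not tested.

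Between lines, 4 of the 64 genes were higher and 5 lower in Mphy5 without UV-B, and 3 were higher and 8 lower with UV-B, against 11% and 13.9% of tested genes and 13.8% and 16%. For the difference of responses, 1 of the 64 was called larger and 3 smaller in Mphy5. The 1 on the side of MpLEA-like18 was MpLEA-like9, whose fitted difference of 4.07 (limma adjusted p = 0.0309) came from 13 reads in all in Mphy5 with UV-B, 0 in Mphy5 without UV-B, 1 in wild type with UV-B and 14 in wild type without UV-B. That fitted value depends on the pseudocount and is no bound. Against the floor of 3 reads per library, the mean of MpLEA-like9 was at least 1.55-fold higher with than without UV-B in Mphy5, and at least 1.68-fold lower in Mphy5 than in wild type without UV-B. Its lowest libraries held 1.19 normalized reads in Mphy5 with UV-B and 1 in wild type without UV-B. Each of these calls was lost in 7 alternatives. The 3 on the other side were MpLEA-like8 (-0.52, adjusted p = 0.000686), MpLEA-like3 (-0.51, adjusted p = 0.0107) and MpLEA-like33 (-0.96, adjusted p = 0.017). MpLEA-like33 averaged 4747 ± 938 normalized reads in Mphy5 with UV-B and 7726 ± 292 without UV-B, against 8247 ± 621 and 6976 ± 412 in wild type. Summed over the 70 other genes, the family held between 58180 and 62726 normalized reads in Mphy5 with UV-B and between 64503 and 65566 without UV-B. In wild type the sum lay between 67368 and 70824 with UV-B and between 63908 and 67091 without UV-B.

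**Figure D3:**
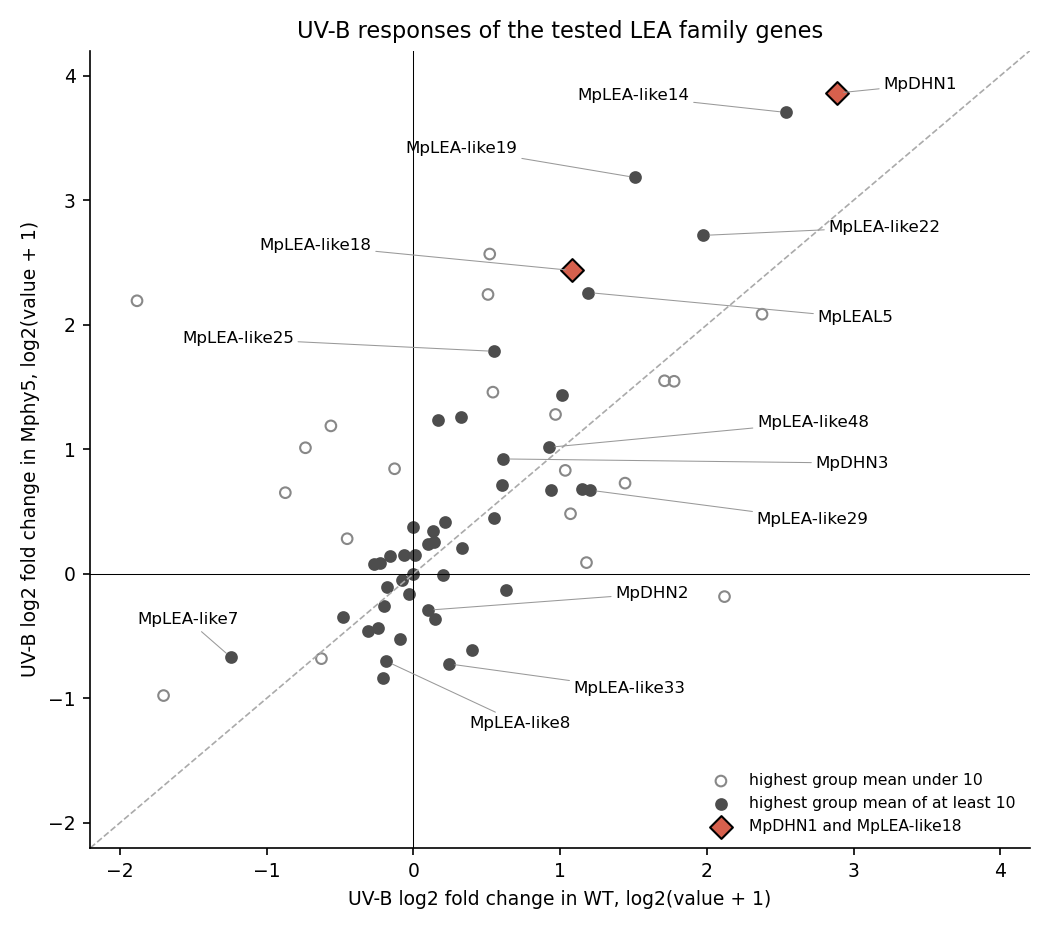
Fitted UV-B response in Mphy5 (vertical axis) against wild type (horizontal axis) for the tested LEA family genes, both as log2 fold changes of value + 1; the dashed line marks equal responses and open circles are genes whose highest group mean is under 10 normalized reads. MpDHN1 (3.86 in Mphy5, 2.89 in wild type) and MpLEA-like18 (2.44 in Mphy5, 1.08 in wild type) lie above the line, and the 64 other genes have medians of 0.36 in Mphy5 and 0.19 in wild type.

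The neighbours of the 2 genes in chromosome order were then examined. MpLEA-like18 opens a run of LEA family genes on chromosome 4. The next gene, Mp4g05740, was at 0 in all 12 libraries, and MpLEA-like19 (Mp4g05750) and MpLEAL5 (Mp4g05760) follow it. MpLEA-like19 stood at 37.5, 48.6 and 39.4 normalized reads in Mphy5 with UV-B, against 3.25, 3.12 and 4.89 without UV-B. In wild type it stood at 19.8, 23.4 and 15.7 with UV-B, against 12.84, 12.01 and 1.03 without UV-B. Its UV-B groups lay apart in each line, with the wild type group without UV-B spread over more than a 10-fold range by 1 low library.

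MpLEAL5 stood at 75.1, 87.4 and 94.4 normalized reads in Mphy5 with UV-B, against 16.3, 21.9 and 13.8 without UV-B. In wild type it stood at 69.8, 58.4 and 33.4 with UV-B, against 23.8, 27.0 and 16.4 without UV-B. Like MpLEA-like18 it was highest in Mphy5 with UV-B, with no overlap between groups with and without UV-B in either line.

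MpLEA-like19 rose by 3.18 in Mphy5 (limma adjusted p = 0.000172) and had a change of 1.51 in wild type (adjusted p = 0.0564). MpLEAL5 rose by 2.26 in Mphy5 (adjusted p = 1.49e-05) and by 1.19 in wild type (adjusted p = 0.00923), the last a call that 2 single libraries decided, wild type UV-B replicate 1 (adjusted p = 0.0609 without it) and wild type replicate 3 without UV-B (adjusted p = 0.0502 without it). Of the 3 measured genes of the run, each had a positive difference of responses, but limma called it only for MpLEA-like18. It was 1.67 for MpLEA-like19 (adjusted p = 0.329) and 1.07 for MpLEAL5 (adjusted p = 0.26). Without wild type replicate 3 without UV-B, the low library, the difference for MpLEA-like19 was 2.58 and was called (adjusted p = 0.0179). The sources used here do not say how reads that match several genes were counted. The sequences of these genes were not compared, so the values of single genes in the run are uncertain to the extent that their copies share reads. On the other side of MpLEA-like18, Mp4g05710 and Mp4g05720 had UV-B changes of -0.06 and 0.20 in Mphy5 and 0.10 and 0.17 in wild type, none of them called.

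The genes beside MpDHN1 had smaller fitted changes than it did, which its choice by UV-B rise makes likely for any neighbours. MpLEA-like48 (Mp6g07560), 2 places further on, rose by 1.02 in Mphy5 (limma adjusted p = 0.023) and by 0.92 in wild type (adjusted p = 0.0421). Those calls were lost in 4 alternatives in Mphy5 and in 6 in wild type. Mp6g07550 between them had a change of 0.52 in Mphy5 (adjusted p = 0.22) and of 0.84 in wild type (adjusted p = 0.0414, lost in 9 alternatives). On the other side, Mp6g07530 rose by 0.28 in Mphy5 and 0.31 in wild type. Mp6g07520 rose by 0.60 in Mphy5 (adjusted p = 8.83e-06), against 0.10 in wild type (adjusted p = 0.432), with a called difference of 0.50 (adjusted p = 0.0175).

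**Figure D4:**
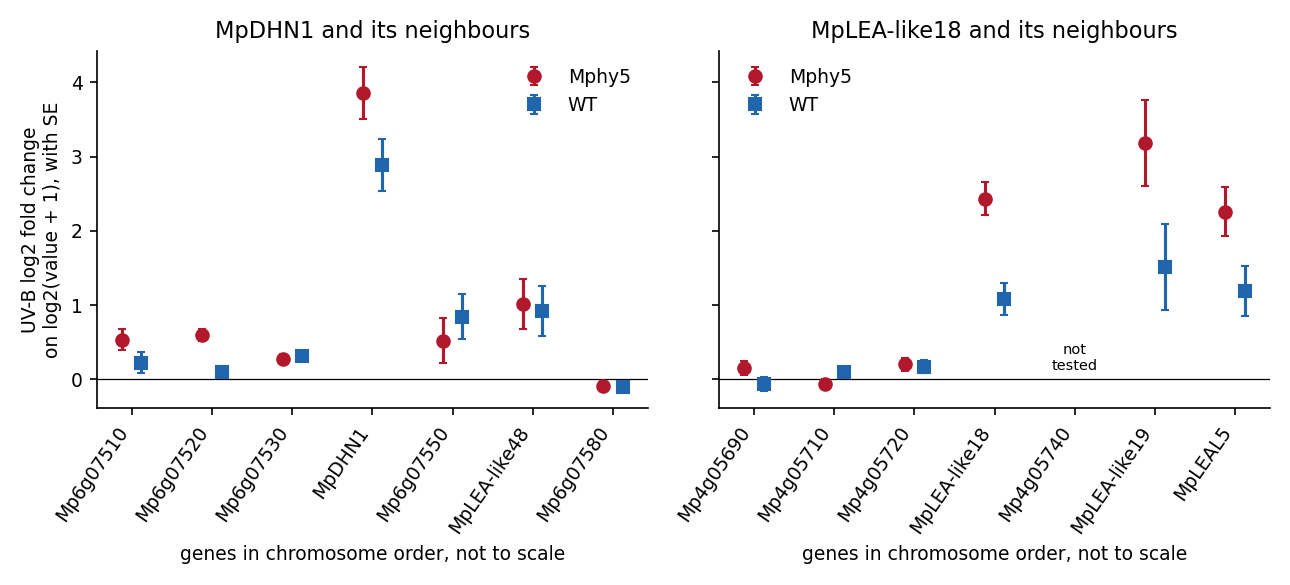
UV-B log2 fold changes (value + 1, with SE) of MpDHN1 (left) and MpLEA-like18 (right) and of the 3 genes on either side of each, in Mphy5 (circles) and wild type (squares); genes are in chromosome order and not to scale. MpLEA-like19 (3.18 and 1.51) and MpLEAL5 (2.26 and 1.19) accompany MpLEA-like18 on one side only. MpDHN1 stands above all 6 of its neighbours, which its choice by UV-B rise favours.

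The genes whose pattern was most like each of the 2 were found by Pearson r of log2(value + 1) over the 12 libraries, among 12312 tested genes with a group mean of at least 50. The 12 libraries share line and UV-B, so r mostly reflects 4 group means, and it is given as a description. For MpDHN1 the first 5 were Mp6g04490 (r = 0.985), Mp2g18550 (0.984), Mp3g20510 (0.981), Mp2g26500 (0.977) and MpRUP (0.974). MpRUP belongs to a family that in flowering plants represses UVR8. For MpLEA-like18 they were Mp2g03960 (0.985), MpPPR_73 (0.984), MpCOP1 (0.982), Mp7g07710 (0.978) and MpC2H2-9 (0.978). MpCOP1 encodes a ubiquitin ligase, MpPPR_73 a pentatricopeptide repeat protein and MpC2H2-9 a zinc finger protein. MpDHN1 and MpLEA-like18 had r = 0.917 with each other, which ranked MpLEA-like18 450th for MpDHN1 and MpDHN1 381st for MpLEA-like18.

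These genes were picked for likeness in the same libraries, so their values too are a description. MpRUP had UV-B responses of 3.82 in Mphy5 and 2.72 in wild type, close to the 3.86 and 2.89 of MpDHN1, and its level without UV-B was lower in Mphy5 by 0.81 on the log2 scale. MpCOP1 had responses of 2.11 and 1.09, beside the 2.44 and 1.08 of MpLEA-like18, and its log2 level in Mphy5 over wild type was -0.20 without UV-B and 0.82 with UV-B. All 5 genes most like MpLEA-like18 had, as it does, a lower mean in Mphy5 without UV-B and a higher mean in Mphy5 with UV-B. Among the 5 genes most like MpDHN1, the mean was lower in Mphy5 without UV-B in all, and with UV-B it was higher in Mphy5 in 3 and lower in Mp2g18550 and Mp3g20510. The lists depend on the measure. With a pseudocount of 5, 4 of the 5 for MpDHN1 and 5 of the 5 for MpLEA-like18 were the same genes, but with Spearman's rho only 1 and 2 were.

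**Figure D5:**
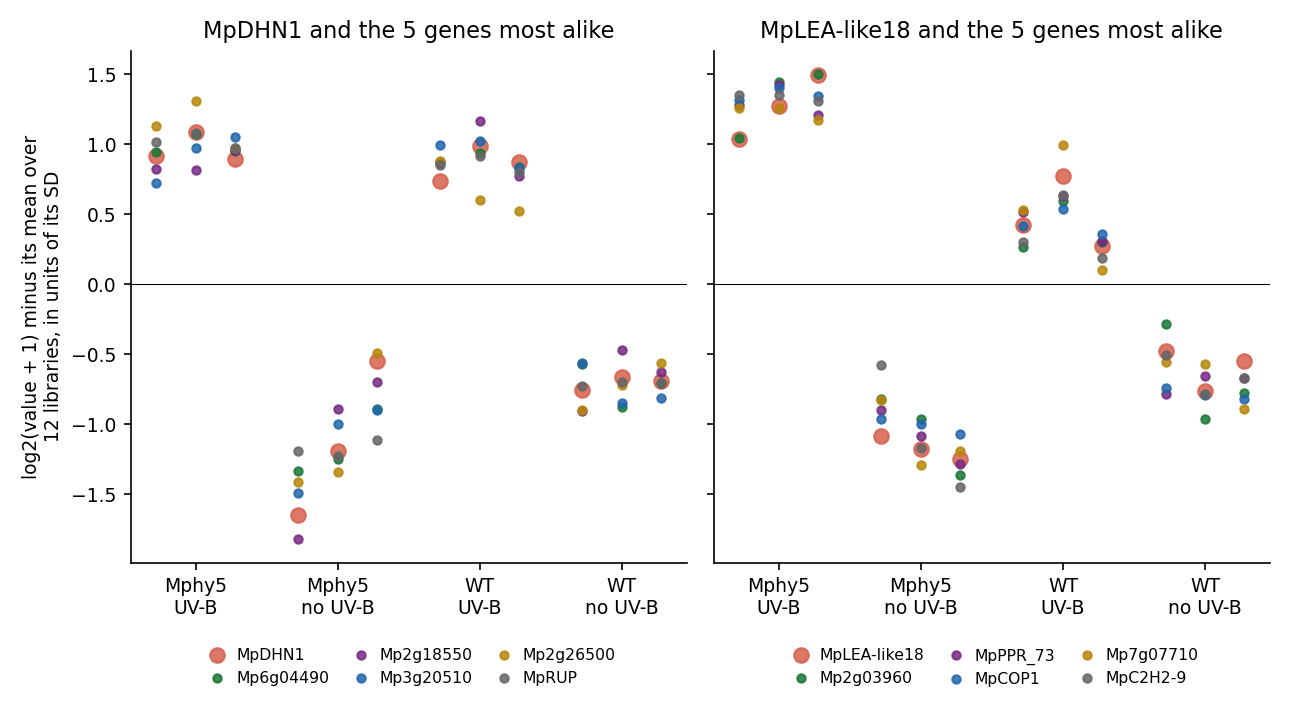
log2(value + 1) of each gene minus its mean over the 12 libraries, in units of its SD, for MpDHN1 (left) and MpLEA-like18 (right, large points) and the 5 genes most alike to each (small points), by group and library. On the left the Mphy5 and wild type libraries with UV-B lie at like heights, and on the right those of Mphy5 lie above those of wild type.

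Genes of related pathways were taken from lists by symbol. The counts of each list stand beside the same background as the LEA family, 15.9% of all tested genes up and 15.9% down in Mphy5, and 14.6% up and 14.6% down in wild type. The ABA list holds every PP2C phosphatase symbol of any group, so it is wider than the ABA pathway. Of its 33 tested genes, 11 rose and 9 fell with UV-B in Mphy5. In wild type 9 rose and 9 fell, and the medians were -0.01 in Mphy5 and 0.04 in wild type. MpABA1, an enzyme of the path to ABA, rose by 1.48 in Mphy5 (limma adjusted p = 1.85e-14) and by 1.23 in wild type (adjusted p = 4.68e-13). MpABI5B, of a bZIP group that in flowering plants acts on LEA genes, rose by 1.29 in Mphy5 (adjusted p = 4.68e-11) and by 0.87 in wild type (adjusted p = 2.63e-08), and its response was larger in Mphy5 (difference 0.42, adjusted p = 0.0351, a call lost in 8 alternatives). MpPP2C_F1 and MpPP2C_G are phosphatase genes listed by symbol, and a role in the ABA pathway was not tested for them. They rose by 0.76 and 0.83 in Mphy5 and by 1.09 and 0.62 in wild type.

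Further ABA genes were chosen after their values were seen. MpABI5A, the other ABI5 symbol of the list, had a change of 0.04 in Mphy5 (limma adjusted p = 0.645) and rose by 0.17 in wild type (adjusted p = 0.0199). MpABI3A had a change of -0.13 in Mphy5 (adjusted p = 0.159) and fell by 0.26 in wild type (adjusted p = 0.00427). Neither had a called difference of responses, and their single values were not put through the alternatives. The receptor gene MpPYL1 had changes of 0.08 in Mphy5 (limma adjusted p = 0.236) and 0.12 in wild type (adjusted p = 0.0756). The kinase gene MpSNRK2A fell by 0.19 in Mphy5 (adjusted p = 0.00207) and by 0.17 in wild type (adjusted p = 0.00524). MpSNRK2B, of the same kinase family, fell by 0.14 in Mphy5 (adjusted p = 0.042, a call lost in 9 alternatives) and had a change of -0.00 in wild type (adjusted p = 0.985). MpABA4, of ABA synthesis, fell by 0.38 in Mphy5 (adjusted p = 0.000103) and by 0.39 in wild type (adjusted p = 9.74e-05). MpNCED, of ABA synthesis, rose by 0.91 in Mphy5 (adjusted p = 0.0154) and had a change of 0.53 in wild type (adjusted p = 0.178). It was also called lower in Mphy5 without UV-B (-0.85, adjusted p = 0.0304), a call lost in 4 alternatives. The call of its UV-B rise in Mphy5 was lost in 1.

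Genes with AP2/ERF symbols were taken for the class that holds the cold and drought regulators of flowering plants. The match was by symbol, and it took in MpCBF5, named only for this, whose class was not checked. Of the 19 tested genes, 4 rose and 4 fell in each line, and MpCBF5 was not among them. The difference of responses was called in 3 of the 19, against 4.46% of all tested genes. MpERF7 rose by 0.55 in Mphy5 (limma adjusted p = 4.79e-05), against -0.05 in wild type (adjusted p = 0.775), a called difference of 0.60 (adjusted p = 0.00726). The other 2, MpERF11 and MpERF19, are named for that call, after their values were seen. MpERF11 had a change of 0.09 in Mphy5 (limma adjusted p = 0.741) and rose by 0.87 in wild type (adjusted p = 0.000177), a difference of -0.78 (adjusted p = 0.0459). MpERF19 averaged 9.96 ± 2.59 normalized reads in Mphy5 with UV-B (SD, n = 3) and was at 0 in the other 9 libraries, and against the floor of 3 reads per library it was at least 3.72-fold higher with UV-B in Mphy5 (difference of responses limma adjusted p = 0.0457). Both calls of a difference were lost in 13 alternatives each. MpERF2 rose by 0.59 in Mphy5 and 0.69 in wild type, MpERF10 fell by 0.85 and 0.82, and MpERF18 fell by 0.88 and 0.92. Of 6 heat shock genes 2 rose and 0 fell in Mphy5, and 2 rose and 1 fell in wild type. MpHSP90-1 rose by 0.37 and 0.25 and MpHSP90-4 by 0.74 and 0.44, in the same order of lines, while MpHSP90-3 fell by 0.38 in wild type and had -0.11 in Mphy5.

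Of 57 tested antioxidant genes, 21 rose and 4 fell in Mphy5, and 21 rose and 6 fell in wild type, with medians of 0.06 in each. MpDHAR1, a dehydroascorbate reductase, rose by 2.17 in Mphy5 (limma adjusted p = 1.56e-18) and by 1.73 in wild type (adjusted p = 7.36e-17), with a difference of 0.44 (adjusted p = 0.000217). The other called difference among the 57 was that of MpGST30, a glutathione transferase gene named after its values were seen. MpGST30 rose by 0.66 in Mphy5 (limma adjusted p = 0.00277), against -0.31 in wild type (adjusted p = 0.164), a difference of 0.97 (adjusted p = 0.0149). MpMDHAR1 rose by 1.03 and 0.90, and the peroxidase genes MpGPX1 and MpGPX2 rose by 0.47 and 1.15 in Mphy5 and by 0.70 and 1.04 in wild type. Of 6 aquaporin genes 0 rose and 2 fell in Mphy5, and 0 rose and 1 fell in wild type. MpNIP fell by 1.08 and 0.77, and MpTIP1 fell by 0.35 in Mphy5 and had -0.09 in wild type. Of 10 UV-B and light signalling genes 8 rose and 0 fell in each line, with medians of 1.22 in Mphy5 and 0.71 in wild type. MpBZIP1, MpRUP, MpCOP1 and MpDET1 each had a called larger response in Mphy5, the direction found for MpLEA-like18. The other 6 of the 10 had no called difference, and 1.93% of all tested genes were called in that direction.

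Markers of other cells were set beside the comparison of lines. All 4 markers of oil body cells were higher in Mphy5 with UV-B, the comparison in which MpLEA-like18 was called, and 2 of 4 were higher without UV-B, against 13.8% and 11% of all tested genes. For the difference of responses, which was also called for MpLEA-like18, 0 of the 4 were called (median 0.07), against 4.46% of all tested genes. Their sum lay between 5236 and 5710 normalized reads in Mphy5 with UV-B and between 4246 and 4646 without UV-B. In wild type it lay between 4002 and 4740 with UV-B and between 3683 and 3980 without UV-B, and none of the 4 was at 0 in any library. Of 6 tested sexual organ genes, 0 rose and 1 fell with UV-B in each line, and the sum of the 7 listed lay between 6574 and 7022 normalized reads in Mphy5 with UV-B and between 8143 and 8770 without UV-B. In wild type that sum lay between 6625 and 7216 with UV-B and between 7980 and 8543 without UV-B. Between lines, 0 of the 6 was called without UV-B, and 1 was called lower in Mphy5 with UV-B. That gene, MpBELL3, is named after its values were seen. It stood at 8.17 ± 1.64 normalized reads in Mphy5 and 23.6 ± 7.53 in wild type with UV-B (SD, n = 3 each; log2 difference -1.39, limma adjusted p = 0.0244, a call lost in 4 alternatives). The part of these cells in the results for MpDHN1 and MpLEA-like18 was not tested.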

How the data were processed

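Per the file headers and values, the authors deposited a normalized signal per gene for 12 libraries. Its steps behave as counts over a size factor: in every library 100% of nonzero entries equalled a whole number of steps (tolerance 0.02 reads), so counts could be recovered. STAR 2.7.4 did the alignment, per the submitters' processing notes. Libraries were TruSeq, read as single ends, per the labels' protocols. The genome build, gene models, counting tool, strand setting and handling of multiply matching reads were not given in the sources.

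Names and gene order came from a RefSeq table of assembly MpTak2_v7.1, with the order by chromosome and start position. Of 18255 identifiers, 18082 had a locus number in that table and 3110 a symbol. No list member was found by symbol for osmolytes or rhizoids.

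limma 3.58.1 (R 4.3.3) was fitted to log2(value + 1) with 4 group means over 12 libraries, with trend and robust options. Genes entered if 3 or more libraries reached a value of 1, which 15999 did. Calls are at a Benjamini-Hochberg adjusted p under 0.05 over all of them. The pseudocount shrinks folds of low genes. edgeR 4.0.16 and DESeq2 1.42.0 were run on recovered reads as alternatives, and the fits were tested on simulated data. Fold changes against a group at 0 were bounded by 3 reads per library, with the mean of the other group taken as observed. Plots used Python 3.11.15 and matplotlib 3.10.9.

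The genes, lists and naming rule were chosen with earlier results of these data known. Named were LEA family genes called with a log2 UV-B change of at least 1 in either line, 8 further ones by adjusted p, up to 4 per other list, the 5 most alike to each gene and the 2 neighbours on either side. Genes said in the text to be named after their values were seen fall outside that rule. Whether replicates were separate cultures is not stated in the labels. The p-values therefore describe spread among these libraries, which may be technical. Same-numbered libraries of the groups did not deviate together (r from -0.017 to 0.054), so replicate numbers were not used as pairs. Poisson intervals and floors cover counting error only.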

Additional observations from a re-analysis of the deposited data

Results flagged for a closer look

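The following UV-B responses were called different between the lines by limma; each value is the log2 response in Mphy5 minus that in wild type. MpLEA-like18 had 1.35, a value not independent of its choice, and of the LEA family MpLEA-like9 had 4.07, MpLEA-like8 -0.52, MpLEA-like3 -0.51 and MpLEA-like33 -0.96. The call for MpLEA-like9, which rests on 28 reads in all 12 libraries and whose size depends on the pseudocount, was lost in 11 alternatives, that for MpLEA-like33 in 2 and that for MpLEA-like3 in 1. Of the other lists, MpABI5B had 0.42, MpERF7 0.60, MpHSP90-4 0.29, MpDHAR1 0.44 and MpTIP1 -0.25, with the call lost in 8 alternatives each for MpABI5B and MpTIP1 and in 1 for MpHSP90-4. MpERF11 had -0.78, MpERF19 3.43 and MpGST30 0.97, and the calls for MpERF11 and MpERF19 were lost in 13 alternatives each. The value for MpERF19, at 0 in 9 libraries, depends on the pseudocount and is no bound. Of light signalling, MpBZIP1 had 1.21, MpRUP 1.11, MpCOP1 1.02 and MpDET1 0.92. Of the genes chosen for a pattern like that of MpDHN1 or MpLEA-like18, for which the choice favours such a difference, Mp6g04490 had 0.83, Mp2g03960 0.36, MpPPR_73 0.57, Mp7g07710 0.39 and MpC2H2-9 0.55, with the call lost in 10 alternatives for Mp6g04490, in 9 for Mp7g07710 and in 1 each for Mp2g03960 and MpC2H2-9. Mp6g07520, near MpDHN1, had 0.50, lost in 3.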

How the results depend on the processing

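Over the alternatives tried, 562 of 570 summary values counted as unchanged, and 0 reversed. For the comparisons of lines and the differences of responses, unchanged meant the same direction and side of the threshold. For the UV-B responses of MpDHN1 and MpLEA-like18 it meant a shift smaller than the mean log2 SD within groups. Counts had to stay within 1.5 times and could not reverse. Filters, limma's options and the libraries of the other line leave a fitted UV-B response unchanged by construction. The tally thus holds values that could not change. Without Mphy5 replicate 3 without UV-B, MpDHN1 had -1.32 for Mphy5 over wild type without UV-B and 1.50 for the difference of responses, both then called. Over all single libraries left out, these 2 values ranged from -1.32 to -0.31 and from 0.49 to 1.50. MpLEA-like18 over wild type ranged from 0.66 to 0.92 with UV-B (adjusted p = 0.0638 without Mphy5 UV-B replicate 3) and from -0.66 to -0.52 without UV-B. Without limma's trend and robust options the contrast without UV-B was -0.57 and was called, and the count of called differences of response was 332, beside 714. Over single libraries left out, the LEA counts ranged from 10 to 17 for the wild type UV-B response, beside 18 with a pseudocount of 5, and from 2 to 5 for the difference, with 2 left without wild type replicate 1 or Mphy5 replicate 2 without UV-B. With the replicate number as a block, the difference for MpLEA-like18 was 1.35 (limma adjusted p = 0.0203) and that for MpDHN1 0.97 (adjusted p = 0.283), and no call for these 2 genes changed. Of the values of single named genes, 7086 of 7385 kept their direction and side of the threshold, 240 lost a call, 59 gained one and 0 reversed.

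Depth limits MpDHN1 most in Mphy5 without UV-B, where 8 to 47 reads were behind each value, and it limits the low LEA genes, whose folds against a group at 0 are bounds. With 3 libraries per group the 95% interval of the difference of responses ran from -0.07 to 2.01 for MpDHN1 and from 0.70 to 2.005 for MpLEA-like18.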
